A study of Blastobotrys raffinosifermentans with 8 samples.

Results

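The 7 locus tags described here are those that the study on *Blastobotrys raffinosifermentans* named as candidates for a 4-hydroxybenzoate 1-hydroxylase: ARAD1C03498g, ARAD1D18392g, ARAD1D27984g, ARAD1C08580g, ARAD1C00330g, ARAD1C08558g and ARAD1A17402g. All were found by tag among the 6160 tags of the array, with 60 probes between them. All but ARAD1A17402g were picked in the study from arrays of cells given protocatechuic acid, for a strong rise there together with an annotation that points to a hydroxylase, and ARAD1C00330g was singled out among them for the size of its rise. ARAD1A17402g was added for its protein similarity to PhyA of *Aspergillus niger*. In that search ARAD1C08558g, ARAD1D18392g and ARAD1D27984g were reported as hits too, with ARAD1D27984g the strongest match. ARAD1C00330g was not among the reported hits. Whether those arrays and the ones described below have glucose cultures in common is not stated in the sources used here. The files do not pair tags with gene names, so the tags are named as they stand.

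A 4-hydroxybenzoate 1-hydroxylase is a flavin-dependent monooxygenase that replaces the carboxyl group of a hydroxybenzoic acid by a hydroxyl group, an oxidative decarboxylation that turns protocatechuic acid into hydroxyquinol. The hydroxyquinol route is known from the yeast *Candida parapsilosis*. Gallic acid, a building block of tannins, can instead lose its carboxyl group without oxidation, giving pyrogallol, and catechol-1,2-dioxygenase opens the aromatic ring of catechol. Of the 7 tags, ARAD1D27984g carries the annotation salicylate hydroxylase in the study, an enzyme that makes catechol from salicylate by the same kind of reaction, and ARAD1A17402g is annotated there only as a monooxygenase or oxidoreductase.

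Transcript levels of the wild-type strain LS3 were measured on 8 one-colour Agilent arrays, 1 for each treatment arm and harvest time. Both arms were grown overnight on glucose with nitrate and then moved to fresh medium, which held 1% glucose plus 0.5% gallic acid in the gallic acid arm and 1% glucose alone in the glucose arm. Flasks were shaken at one temperature, and cells were taken after 15 and 30 min and after 2 and 5 h. The gallic acid cells therefore always had glucose as well. The labels do not state whether each array had a culture of its own, so the p-values speak only for the spread between these arrays, and their small number limits the precision. Slide row follows the arm and slide column follows harvest time, and these cannot be told apart. Total RNA of whole cultures was measured, so a change in part of the cells and a smaller change in all of them cannot be told apart either. The share of spots well above background, the scanner's mark for a spot clearly brighter than its surroundings, was 56.7% to 74.3% on the gallic acid arrays and 58.2% to 81.9% on the glucose arrays, and it was lower with gallic acid at each harvest time.

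The 7 candidates fell into a bright and a dim set, with ARAD1C00330g changing sides between the arms. ARAD1C03498g, ARAD1D18392g and ARAD1D27984g had at least 90% of their probes well above background on every array. ARAD1C08580g, ARAD1C08558g and ARAD1A17402g had at most 33.3% above it on any array. ARAD1C00330g, with 10 probes, had 70%, 100%, 100% and 90% of them well above background with gallic acid in order of harvest time, against 10%, 0%, 20% and 0% in glucose. The arms did not overlap in this share.

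**Figure D1:**
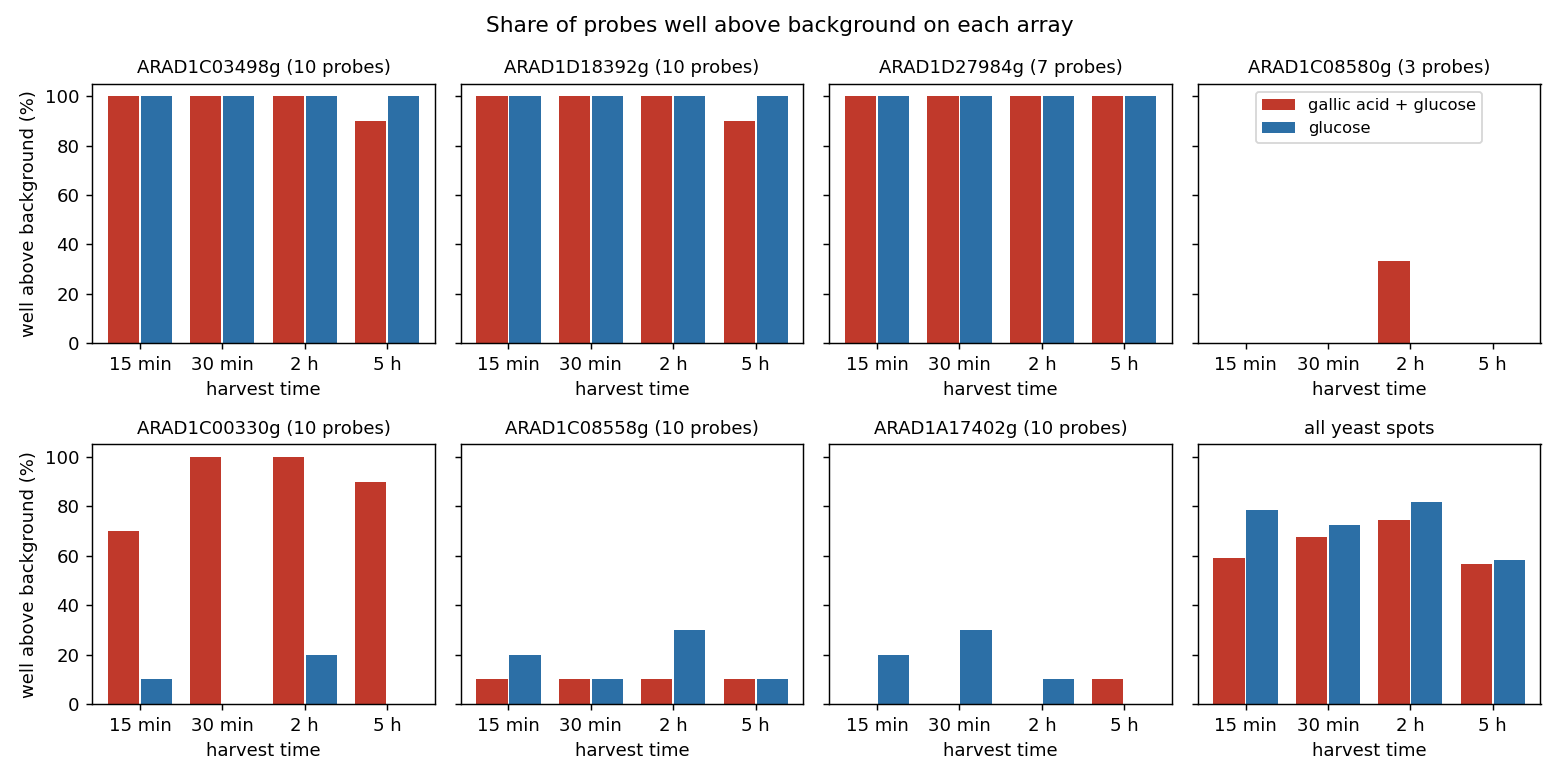
Percentage of probes well above background (vertical axis) on each array, by harvest time, for each candidate and for all yeast spots, with the gallic acid array left of the glucose array. ARAD1C00330g is between 70% and 100% with gallic acid and at most 20% in glucose, whereas over all yeast spots the gallic acid bar is the lower one at each time.

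Averaged over the harvest times, 90% of the probes of ARAD1C00330g were well above background with gallic acid and 7.50% in glucose. That difference of 82.5 percentage points ranked 2 among the 6160 tags, of which 349 had a higher share with gallic acid and 3959 a lower one (median difference -5 points). In 7 tags, 0.114% of all, every gallic acid array had a higher share than every glucose array. The other candidates differed in this share by between -12.5 points, for ARAD1A17402g, and 8.33 points, for ARAD1C08580g.

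The next comparison asks whether the candidates responded to gallic acid over the whole course. A tag's level was the median of its probes on a log2 scale after background correction and quantile normalisation, and limma compared the arms within harvest times. The test took in tags with 1 or more probes well above background on 2 or more arrays. This left 6112 tags and 6 of the 7 candidates, and ARAD1C08580g was left out. ARAD1C00330g met this rule on its glucose arrays alone as well. None of the 6 passed a Benjamini-Hochberg adjusted p of 0.05 (0 of 6), and among all tags tested 5 were higher, or 0.0818%, and 0 lower, or 0%. At an unadjusted p below 0.05, 1 candidate and 8.67% of all tags were counted. Of the 6, 2 were higher and 4 lower in value with gallic acid, with a median difference of -0.00 on the log2 scale, against -0.01 over all tags tested. ARAD1C03498g, ARAD1C08558g and ARAD1A17402g, all lower in value, changed sign under at least 1 other scaling.

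ARAD1C00330g was the candidate with an unadjusted p below 0.05. Its normalised level was 6.33, 7.12, 6.70 and 6.59 on the log2 scale with gallic acid in order of harvest time, against 5.90, 5.98, 5.89 and 5.90 in glucose. Every gallic acid array lay above every glucose array, which was so for 45 of the 6112 tags, or 0.736%. It averaged 6.68 ± 0.33 with gallic acid and 5.92 ± 0.04 in glucose (SD over the 4 harvest times of an arm).

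The fitted difference of ARAD1C00330g was 0.77 on the log2 scale (95% interval 0.47 to 1.07, n = 4 pairs of arrays, limma adjusted p = 0.286). Since some of its probes were well above background on only 2 of the 4 glucose arrays, and at most 20% of them on any, this describes the measured values and is no exact size. It was the 1 candidate higher at all 4 harvest times, where 8.12% of all tags were. At 30 min its ratio of 1.14 was at least 1 in size with 10 of 10 probes higher, a mark reached at some harvest time by 1.34% of all tags. With gallic acid the level of ARAD1C00330g was highest at 30 min and lowest at 15 min, with 2 h and 5 h, which lay 0.11 apart, between them. Its levels on the 4 glucose arrays, 5.89 to 5.98, lay close to the lowest level that still counted as above background on those arrays (5.86 to 5.95).

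**Figure D2:**
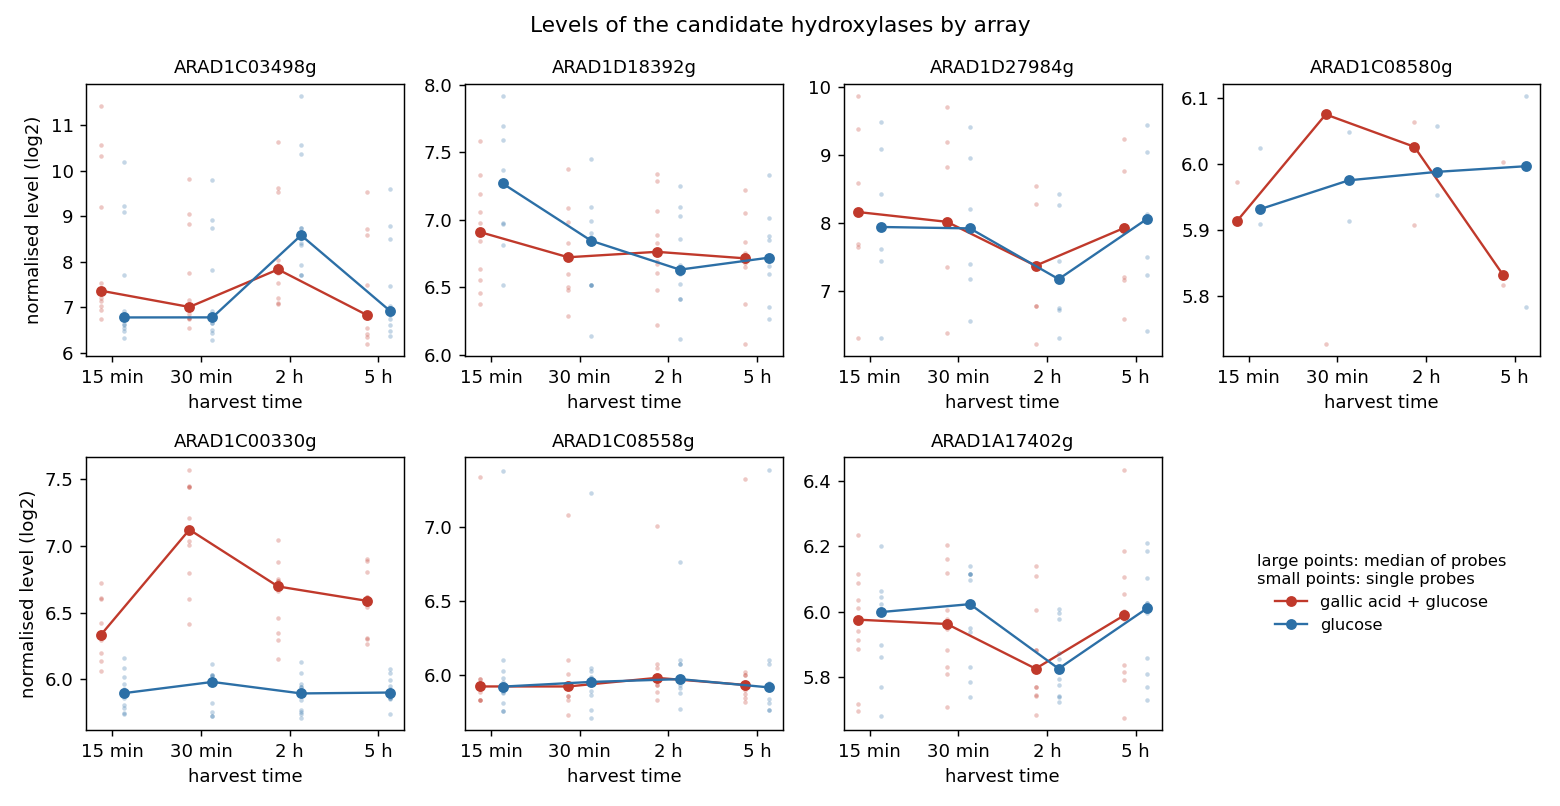
Normalised log2 level (vertical axis, with its own range in each panel) by harvest time for the 7 candidates. Large points joined by lines are the medians of a tag's probes, small points are single probes, and the gallic acid arm is drawn left of the glucose arm. ARAD1C00330g stands above its glucose levels at every time, ARAD1D27984g dips at 2 h in both arms, and the 3 dim tags stay near a level of 6.

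The size of this difference moved between settings of background and scaling. The constant of 50 added to every spot before logarithms pulls ratios of dim probes towards 0. In the processed signal of the scanner, in intensity units not scaled between arrays, the median probe of ARAD1C00330g stood at 19.1, 83.8, 59.4 and 27.0 with gallic acid in order of harvest time, against 6.34, 4.76, 6.38 and 2.67 in glucose. With that signal scaled to the 75th percentile of each array, the log2 ratios of the measured values by harvest time were 2.03, 4.08, 3.71 and 3.29. With glucose at the background, these ratios have no exact size either. The medians of all tags moved with this scaling as well, to between -0.20 and 0.04.

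Under each scaling that was run the interval for ARAD1C00330g lay above 0. It was 0.47 to 1.07 at offset 50 and 0.98 to 1.73 for the authors' log2 table. At offset 0 it was 1.90 to 2.71 and with the 75th percentile 2.55 to 4.01. In the last 2 settings the tag passed the threshold (limma adjusted p = 0.00056 and p = 0.00541), while the adjusted p was 0.0504 for the authors' table and 0.209 with median scaling. At offset 0 and with the 75th percentile, 18 and 13 of the 6112 tags passed. The size therefore differed between settings. Offset 0 differs from offset 50 only in that constant, while the 75th percentile setting differs in signal and scaling as well. Their parts in the spread of these intervals were not separated.

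**Figure D3:**
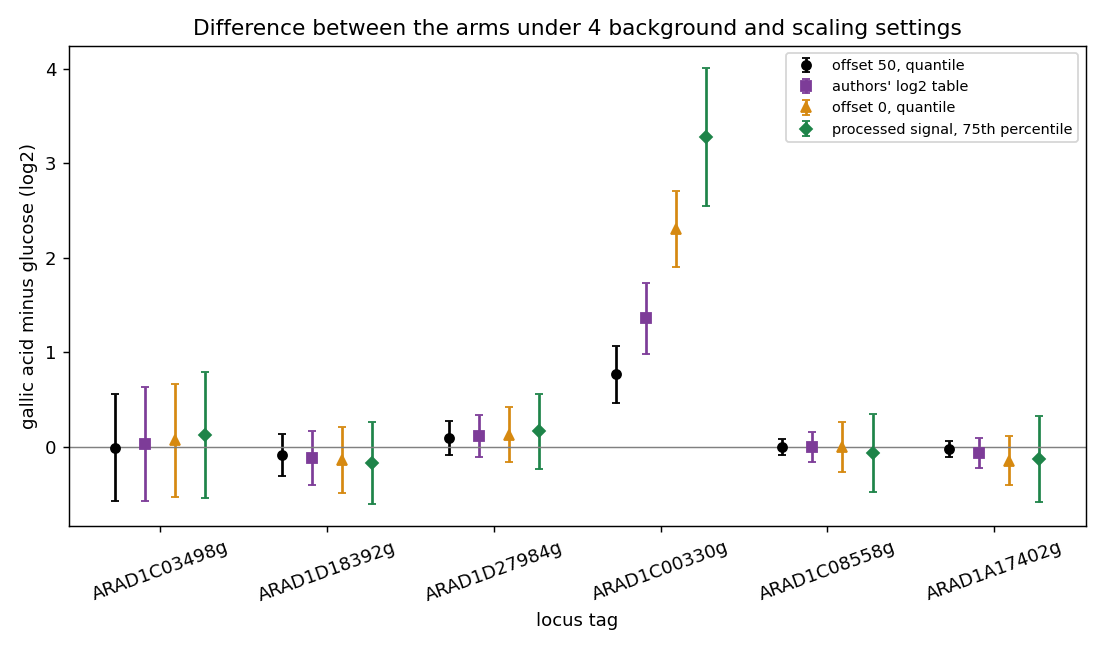
Gallic acid minus glucose on the log2 scale (vertical axis) for the 6 tested candidates, with 95% intervals from limma, under 4 settings of background and scaling. Glucose values of ARAD1C00330g lie at the background, so its points have no exact size. The interval of ARAD1C00330g lies above 0 in each of them, at 0.47 to 1.07 with offset 50 and 2.55 to 4.01 with the 75th percentile, while those of the other 5 tags span 0.

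Probe by probe, the difference of ARAD1C00330g was present along the whole stretch that the array covers, from a probe starting at base 300 of the tag to one at base 954. All 10 probes were higher with gallic acid at all 4 harvest times. Their measured differences over all times ran from 0.42 to 1.08 on the log2 scale, with a median of 0.77. Within the gallic acid arm, all 10 probes were highest at 30 min and all 10 were lowest at 15 min, whereas in glucose the highest time varied between probes.

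In the fit over 47494 probes, 0 of the 10 passed after adjustment (limma adjusted p from 0.108 to 0.332), where 0.0695% of all probes passed as higher and 0.00421% as lower. All 10 had an unadjusted p below 0.05, where 9.33% of all probes did in either direction and 4.14% upwards. Of the 10, 9 entered this fit only through the gallic acid arrays, where they are high, and so had to differ. These counts are therefore a description and support nothing. Probes of one tag also share a transcript and are not replicates.

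On all 4 glucose arrays 8 of the 10 probes were not well above background, so for these the fold change has only a lower bound. The bound sets the mean with gallic acid against the higher of the probe's own glucose value and the lowest level counted as above background on that array. By it, the 8 probes were at least 1.28-fold to at least 2.09-fold higher with gallic acid. The lowest bounds came from the probes starting at bases 437, 300 and 377. These were well above background on only 2, 3 and 3 of the 4 gallic acid arrays, so their gallic acid means include values at the background. The probe starting at base 834, for which the bound was 2.09-fold, measured 7.03 ± 0.40 with gallic acid and 5.94 ± 0.06 in glucose (SD, n = 4 arrays each). On the scale of the 75th percentile, chosen after seeing the data, the bounds ran from at least 2.92-fold to at least 11.4-fold.

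**Figure D4:**
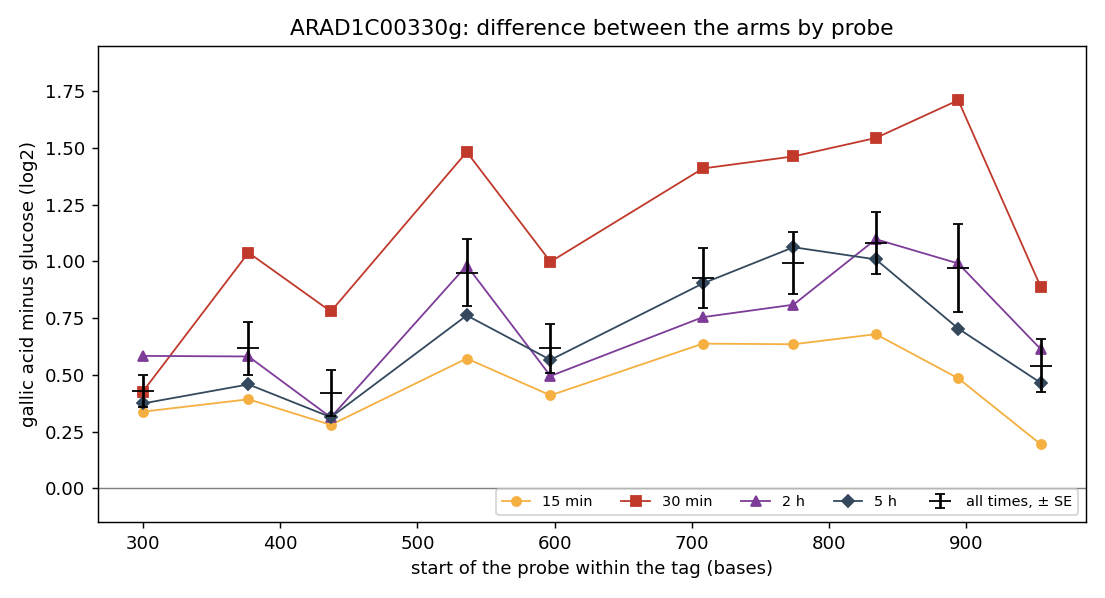
Gallic acid minus glucose on the log2 scale (vertical axis) for the 10 probes of ARAD1C00330g, placed by where they start within the tag (bases), for each harvest time and over all times (black bars, ± SE of limma). Every point is above 0, and 8 of the 10 probes were not well above background on any glucose array, so that their points have no exact size.

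In the bright set 0 of 3 tags passed between the arms. ARAD1C03498g stood at 7.36, 7.0, 7.83 and 6.83 on the log2 scale with gallic acid in order of harvest time, against 6.77, 6.77, 8.58 and 6.92 in glucose. Its fitted difference was -0.01 (95% interval -0.57 to 0.56, n = 4 pairs, limma adjusted p = 0.998), which as a fold change is 0.672 to 1.47. The ratio changed sign over the course, at 0.59, 0.23, -0.75 and -0.09 in order of harvest time, with 10 of 10 probes higher at 15 min and 0 of 10 at 2 h.

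Whether a response differs between early and late harvest was asked with an interaction term. For ARAD1C03498g the response was lower by 0.83 on the log2 scale at the late times than at the early ones (late minus early -0.83, SE 0.27, limma adjusted p = 0.874), the 1 candidate with an unadjusted p below 0.05 (5.46% of all tags). None of the 6 candidates and 0% of all tags passed after adjustment (0 of 6112, with 334 at an unadjusted p below 0.05).

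The ratio of ARAD1C03498g at 15 min also differed along the tag, a pattern noticed after the values were seen. Its 4 upstream probes, starting at bases 28 to 613, had ratios of 1.23 to 1.51 on the log2 scale, and its 6 downstream probes, starting at bases 673 to 1099, had ratios of 0.42 to 0.61. At offset 0 the ranges were 1.28 to 1.78 upstream and 0.91 to 0.98 downstream, a narrower gap. The upstream probes were also the brighter ones. In glucose at 15 min they measured 7.70 to 10.18 on the log2 scale, against 6.32 to 6.91 for the downstream probes. Place along the tag and brightness therefore cannot be told apart here. At 2 h the ranges overlapped, at -1.0 to -0.71 upstream and -0.83 to -0.61 downstream. With gallic acid 4 of the 10 probes were highest at 15 min and 6 at 2 h, while in glucose all 10 were highest at 2 h.

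**Figure D5:**
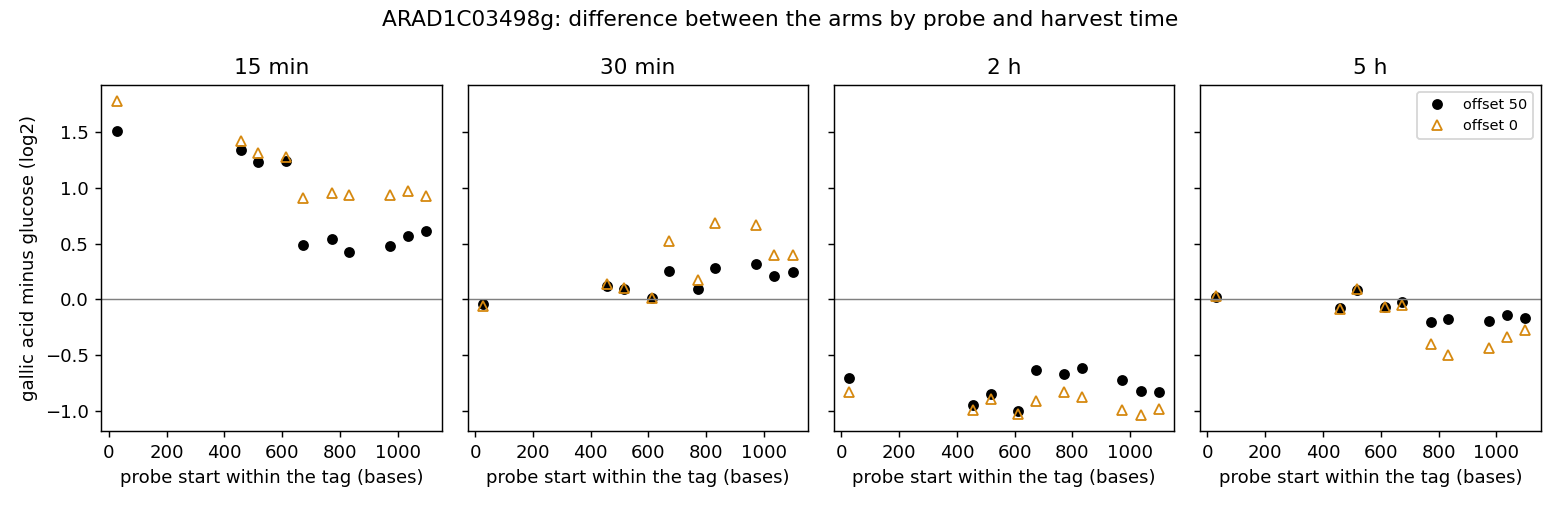
Gallic acid minus glucose on the log2 scale (vertical axis) for the 10 probes of ARAD1C03498g by where they start within the tag (bases), in one panel per harvest time, at offset 50 (filled circles) and offset 0 (open triangles). At 15 min the 4 upstream probes, which are also the brighter ones, lie above the 6 downstream ones in both settings. At 2 h all 10 lie below 0.

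ARAD1D18392g, whose protein is one of those similar to PhyA in the study, was higher in glucose at the first harvest. Its level was 6.91, 6.72, 6.76 and 6.71 on the log2 scale with gallic acid in order of harvest time, against 7.27, 6.84, 6.63 and 6.72 in glucose. The fitted difference of -0.09 (95% interval -0.31 to 0.13, limma adjusted p = 0.819) was small beside the ratio of -0.36 at 15 min, where 1 of 10 probes was higher with gallic acid. Without the 15 min pair the difference was 0.0016. With gallic acid 5 of its 10 probes were highest at 15 min, against all 10 in glucose.

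ARAD1D27984g, the tag annotated as a salicylate hydroxylase, was at 8.16, 8.01, 7.37 and 7.92 on the log2 scale with gallic acid in order of harvest time, against 7.94, 7.92, 7.17 and 8.06 in glucose. The arms overlapped, and the fitted difference was 0.09 (95% interval -0.08 to 0.27, n = 4 pairs, limma adjusted p = 0.760). From the first to the last harvest the ratio was 0.22, 0.10, 0.20 and -0.14. The 7 probes of this tag start no further than base 435, well short of the reading frame that its stated protein length implies, so the values may not cover the whole gene.

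The courses over harvest time were then compared. A moderated F test in limma asked whether the harvest time means, with the arms averaged, differed. It called 2 of the 6 candidates tested, ARAD1D27984g and ARAD1C03498g, and 45.7% of all tags. The range of the harvest time means had a median of 0.41 over the 6 candidates and of 0.37 over all tags. Anything that both arrays of a harvest time share counts as course in this test.

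For ARAD1D27984g the mean of the arms was 8.05, 7.97, 7.27 and 7.99 in order of harvest time, a range of 0.78 (limma adjusted p = 0.00823). The dip at 2 h was seen in both arms, and all 7 probes were lowest at 2 h in each of them. Relative to the mean of the other 3 times, the probes at 2 h differed by -1.05 to -0.20 with gallic acid and by -1.05 to -0.13 in glucose. At 2 h, 42.4% of all tags had their lowest mean. The call was lost without 2 h (range 0.08, limma adjusted p = 0.827) and with Bonferroni adjustment.

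ARAD1C03498g went the other way. The mean of the arms was 7.07, 6.89, 8.20 and 6.87 in order of harvest time, a range of 1.33 (limma adjusted p = 0.0475), and 27.8% of all tags had their highest mean at 2 h as well. At 2 h its probes stood -0.11 to 0.94 from the mean of their other times with gallic acid, against 1.09 to 1.80 in glucose. The call was lost without 30 min (adjusted p = 0.0611), without 2 h (range 0.19, adjusted p = 0.677) and without 5 h (adjusted p = 0.0925). It was lost also with the mean of the probes (1.24, adjusted p = 0.105) or the brightest probe (1.575, adjusted p = 0.0812) in place of their median, and with Bonferroni adjustment.

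ARAD1D18392g had harvest time means of 7.09, 6.78, 6.70 and 6.72, highest at 15 min (range 0.39, limma adjusted p = 0.114). Those of ARAD1C00330g spanned 0.44 (adjusted p = 0.239). At offset 0 its range was 1.01 and passed (limma adjusted p = 0.0371), where 3557 of the 6112 tags passed the course test. The means of this tag average the gallic acid arm with glucose levels near the background. They therefore do not show a course common to both arms.

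The dim candidates gave little to compare. ARAD1C08558g, also similar to PhyA, had levels of 5.92 to 5.98 on the log2 scale with gallic acid and 5.91 to 5.97 in glucose, and its fitted difference was -0.00 (95% interval -0.09 to 0.08, limma adjusted p = 0.998). Of its 10 probes 7 were never well above background. The probe starting at base 1067 was well above it on all 8 arrays, and it differed by -0.00 between the arms, at 7.19 ± 0.17 with gallic acid and 7.19 ± 0.29 in glucose (SD, n = 4 arrays each, limma adjusted p = 0.998). This single bright probe sat among 9 that were above background on 2 arrays at most. The harvest time means of ARAD1C08558g spanned 0.05 (limma adjusted p = 0.693), and passed under 1 of 13 alternatives, the 75th percentile, with a range of 1.06 (limma adjusted p = 0.0370). Under that setting 3256 of the 6112 tags passed the course test.

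ARAD1A17402g had levels of 5.83 to 5.99 with gallic acid and 5.83 to 6.02 in glucose. The fitted difference was -0.03 (95% interval -0.11 to 0.06, limma adjusted p = 0.868), and 6 of its 10 probes were never well above background. Both arms were lowest at 2 h (range of the means 0.17, limma adjusted p = 0.0703), and 7 of 10 probes with gallic acid and 8 of 10 in glucose were lowest then. That range passed under 4 of 13 alternatives, at 1.1 with offset 0 (limma adjusted p = 0.00172), 0.38 with median scaling (p = 0.0208), 0.39 with the authors' table (p = 0.0313) and 0.17 with a trended and robust prior (p = 0.00449). In these settings 3557, 2942, 3184 and 3594 of the 6112 tags passed the course test. In the main setting 42.4% of all tags had their lowest mean at 2 h. Without 2 h the range of ARAD1A17402g was 0.013. No array had more than 30% of its probes well above background.

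ARAD1C08580g, with 3 probes, was left untested. It was at 5.91, 6.07, 6.03 and 5.83 with gallic acid in order of harvest time, against 5.93, 5.98, 5.99 and 6.0 in glucose. A single probe exceeded the background, on the 2 h array with gallic acid. No fold is given for this tag, and none of these values separates a low level from no transcript. Differences near 0 in the 3 dim candidates are bounded by the background and leave a response below it unseen.

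ARAD1C08558g and ARAD1C08580g are neighbours in tag order on chromosome C, which stands in for gene order. ARAD1C00330g is the 11th of the 1991 tags of chromosome C on the array. The 9 of its 10 nearest neighbours that were tested differed between the arms by -0.02 to 0.10 on the log2 scale, with 0 past the threshold. Around ARAD1C03498g, the tag next before it, ARAD1C03476g, had a ratio of 1.37 at 15 min, and of -0.08, -0.48 and -0.10 at the later times, with all 5 probes well above background on every array. All 10 probes of ARAD1C03498g were likewise positive at 15 min and negative at 2 h. ARAD1A17446g, placed 2 after ARAD1A17402g, differed by -0.26, -0.20, -1.54 and -1.1 from the first to the last harvest. Over all harvest times neither neighbour passed (limma adjusted p = 0.911, limma adjusted p = 0.536).

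The other tags of this breakdown route were ARAD1D18458g, for catechol-1,2-dioxygenase, and ARAD1D18502g, for a phenol hydroxylase that is taken to turn catechol into hydroxyquinol. No probe was found under the tag the study gives for gallic acid decarboxylase, so that gene was not analysed here. ARAD1D18458g lies 3 and ARAD1D18502g 5 places after ARAD1D18392g in tag order. Of the pair 0 passed between the arms, with 95% intervals of -0.12 to 0.17 for ARAD1D18458g and -0.21 to 0.45 for ARAD1D18502g. The ratio of ARAD1D18458g was -0.07, 0.20, -0.02 and -0.01 on the log2 scale in order of harvest time. Of its 10 probes, 3, 10, 2 and 5 were higher with gallic acid at these times. The study reports induction of the dioxygenase gene by gallic acid, from quantitative PCR and from microarrays, citing the arrays described here. Its PCR used another strain with gallic acid as sole carbon source, and the level peaked later than the last harvest here. Whether these differences or the place of the probes account for the lack of a call here was not tested.

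By course 1 of the pair was called, ARAD1D18458g (limma adjusted p = 0.00235). Its level was 6.14, 6.76, 7.07 and 6.09 with gallic acid in order of harvest time, against 6.21, 6.56, 7.10 and 6.10 in glucose, highest at 2 h in both arms as for ARAD1C03498g. ARAD1D18502g was at 8.25 to 8.83 with gallic acid and 8.15 to 8.68 in glucose (course adjusted p = 0.184 with limma).

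Finally, the tag most like each brighter candidate was sought by Pearson's r of the levels over the 8 arrays. These arrays share harvest times in pairs, so r is a description without a test. ARAD1C03498g was most like ARAD1C09526g (r = 0.984), a dim tag with 10% to 80% of its probes above background. ARAD1D18392g was most like ARAD1D17050g (r = 0.992), which was highest at 15 min in both arms. ARAD1D27984g was most like ARAD1B05302g (r = 0.992), which was lowest at 2 h in both arms.

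ARAD1C00330g was most like ARAD1A09196g (r = 0.961), at 6.06, 6.34, 6.25 and 6.21 on the log2 scale with gallic acid in order of harvest time and 6.05, 5.98, 5.98 and 5.97 in glucose. That tag was likewise highest at 30 min with gallic acid, and its difference of 0.22 did not pass (limma adjusted p = 0.509). An r over 0.9 was shared by 11 other tags for ARAD1C00330g, against 22 for ARAD1D18392g, 150 for ARAD1D27984g and 233 for ARAD1C03498g. Among the candidates themselves, ARAD1C03498g and ARAD1D27984g had r = -0.85 over the 8 arrays, the first being highest and the second lowest at 2 h.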

How the data were processed

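Total RNA of strain LS3 was labelled with one dye and hybridised to 8 arrays. The authors deposited spot intensity values from Agilent Feature Extraction 11.5.1.1 (median signal, local background, processed signal) with flags, which are other values of 0 or 1 deposited per spot. The authors also deposited a log2 table, per the labels background-corrected and normalised with limma, with neither its offset nor its signal column stated. Of 62976 features, 61537 spots carry 56312 probes.

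In R 4.3.3 with limma 3.58.1, normexp with offset 50 was applied to the median signal against the median background (the planned mean signal was not used here). Controls were removed, arrays were quantile-normalised, spots of a probe were averaged without outlier spots, and probes were summarised by their median. The additive fit (arm plus harvest time, 3 residual degrees of freedom) gave the arm difference and the course, and an interaction with early or late harvest left 2 degrees of freedom. A response that varies over time counts as error in the additive fit. P-values were Benjamini-Hochberg adjusted over all tags, or over all 47494 probes, with a threshold of 0.05. The fit was tested on simulated data.

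Arrays of the same harvest time deviated together after the arm means were removed (r = 0.75 to 0.91, against 0.0050 at most for other pairings), and the labels give both arms the same harvest times, so harvest time pairs the arrays.

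The members, lists and rules were chosen with earlier results of these data known. Named tags are the candidates, the pathway tags, the tag most like each candidate that had 50% of its probes above background on at least 4 arrays, and, among 5 neighbours on either side, at most 2 that rose and 2 that fell with a log2 ratio of 1 or more in size at some harvest time with at least 80% of probes of that sign. Alternatives were another offset, scaling, probe summary, filter, adjustment or prior, the authors' table, no block, and each harvest time left out. The bounds on the 75th percentile scale and the split of probes along ARAD1C03498g were chosen after seeing the data.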

Additional observations from a re-analysis of the deposited data

Results flagged for a closer look

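In 5 of 14 sets of 4 arrays (7 candidates in 2 arms) 1 array lay far from the rest of its arm by Dixon's criterion. Chance marks about 1 in 20 sets of replicates, but here the arrays within an arm differ in harvest time, and that rate does not apply. ARAD1C03498g stood high in glucose at 2 h, at 8.58 on the log2 scale. ARAD1D27984g stood low in glucose at 2 h, at 7.17. ARAD1A17402g stood low at 2 h with gallic acid, at 5.83, and in glucose, at 5.83, both near the background. ARAD1C00330g stood high in glucose at 30 min, at 5.98, where 0% of its probes were well above background.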

How the results depend on the processing

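The 5 tags past the threshold between the arms became 18 at offset 0 (14 higher, 4 lower), 13 with the 75th percentile (13 higher, 0 lower), 10 with the authors' log2 table (8 higher, 2 lower), 17 with a trended and robust prior (12 higher, 5 lower), 7 with median scaling (5 higher, 2 lower), 1 with Bonferroni adjustment and 3 without harvest time as the replicate block, and 0 to 4 when a harvest time was left out. The 35 probes past the threshold became 111, 75 and 122 at offset 0, with the 75th percentile and with the authors' table, 9 with Bonferroni adjustment, and 15 to 39 with a harvest time left out (15 without 2 h, 16 without 30 min). The 2794 tags of the course became 64 with Bonferroni adjustment and 622 to 2754 with a harvest time left out. They rose to 3557 at offset 0, 3256 with the 75th percentile and 3184 with the authors' table. With median scaling, the mean of probes and a trended and robust prior they were 2942, 3204 and 3594. The highest bound of ARAD1C00330g moved from 2.09-fold to 11.4-fold with the 75th percentile. ARAD1C00330g was past the threshold in 2 of 15 alternatives and higher in value in each of these 15 (0.64 to 3.28, no exact sizes with glucose at the background), with 0.64 to 0.88 when a harvest time was left out and an adjusted p of 0.823 without the block. Differences near 0 changed sign. ARAD1C03498g was at 0.071 at offset 0, 0.12 with the 75th percentile, 0.032 with the authors' table, 0.032 with the mean and 0.046 with the brightest probe, and at -0.21 to 0.24 with a harvest time left out (0.022 without 5 h). ARAD1C08558g was at 0.029 with median scaling, 0.0028 with the mean of probes and -0.0070 to 0.0087 with a harvest time left out. ARAD1A17402g was at 0.011, 0.0080 and 0.0996 with median scaling, the mean and the brightest probe, and ARAD1D18392g at -0.16 to 0.0016 with a harvest time left out. None of these 4 passed in any alternative, and the cause was not tested. The interaction had 0 tags in each alternative run. It was not run with a harvest time left out.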
